A study of Mus musculus with 18 samples.

Results

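The first 4 hours of interleukin-6 (IL-6) in primary mouse hepatocytes were followed on 4 arrays, 1 each at 1, 2, 3 and 4 h, of the 18 arrays in the series. The members are the arrays labelled with IL-6 as the only stimulus, with 2 arrays (1 and 2 h) set against the other 2 (3 and 4 h). Hepatocytes came from male C57BL/6N mice aged 8 to 12 weeks, and each experiment used cells of 1 animal or a pool of up to 3. Cells attached to collagen I in serum-containing medium, were held in serum-free medium with 100 nM dexamethasone (a synthetic glucocorticoid), and then spent 4 h in a starvation medium whose listed supplements hold neither serum nor dexamethasone, so controls and stimulated cells share this history. IL-6 was human recombinant protein at 40 ng/ml. There was 1 unstimulated control before starvation, at -5 h, and 1 each at 0, 4, 8, 12 and 24 h, and 8 further arrays from 5 to 24 h had IL-6 together with mouse hepatocyte growth factor (HGF, 40 ng/ml), added at 4 h. Each condition and time had a single array and there was no control at 1, 2 or 3 h, so neighbouring hours stood in for replicates and their spread includes any change over time. The labels do not say whether the arrays came from separate animals, so p-values measure the spread between these arrays. Values are log2 signals, for which a difference of 1 is a doubling, and 18193 genes were tested, each by its brightest probe set.

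IL-6 binds its receptor and the shared subunit gp130, which activates JAK kinases. These phosphorylate STAT3, which enters the nucleus and switches on target genes directly. Socs3 is a classic early target whose protein inhibits the same receptor complex, while C/EBP factors and STAT3 itself act on the genes of the acute-phase response, the shift in the plasma proteins that the liver secretes during inflammation. Genes of such a response can peak and fall away, reach a plateau, or build up over hours, and the comparison of 3 and 4 h with 1 and 2 h asks which genes did which.

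STAT dimers bind the palindrome TTCNNNGAA, which reads the same on both strands. Promoter windows were 250 bases before to 50 after the RefSeq start (GRCm38.p6). Of 14452 measured genes with an entry, 8.57% held the motif in at least 1 window. Counted by window, it is in 8.3% of all 32851 windows. Of the 18 genes called higher at 3 and 4 h of IL-6 than in the controls, described below, 16 had an entry and 7 held the motif: Ccdc71l, Fga, Fgb, Gcnt2, Ibtk, Socs3 and Steap4. Of 3 other motifs counted, the palindromic C/EBP motif and the cyclic AMP response motif were in 0 of the 16. The CArG box was in 1, Arrdc4. Among measured genes with an entry their shares were 0.27%, 2.92% and 1.58%. These letters are a description and show no binding. The sequences below run 5′ to 3′ on the gene's strand, with the STAT motif in capitals. They put 2 feedback inhibitors (Socs3, Cish) beside 3 genes whose mean was higher at 3-4 h than at 1-2 h (Steap4, Fga, Fgb). All of these genes were already above both controls at 1 h, and none was called for the step between the windows.
Socs3: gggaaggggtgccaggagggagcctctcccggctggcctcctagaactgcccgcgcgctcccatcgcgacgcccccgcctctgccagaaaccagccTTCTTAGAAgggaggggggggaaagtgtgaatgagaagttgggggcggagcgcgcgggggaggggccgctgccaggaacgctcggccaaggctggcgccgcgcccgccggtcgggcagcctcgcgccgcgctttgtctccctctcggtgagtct
Cish: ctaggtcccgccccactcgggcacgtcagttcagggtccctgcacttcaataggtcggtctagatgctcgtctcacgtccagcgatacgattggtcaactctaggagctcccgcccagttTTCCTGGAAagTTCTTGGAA
Steap4: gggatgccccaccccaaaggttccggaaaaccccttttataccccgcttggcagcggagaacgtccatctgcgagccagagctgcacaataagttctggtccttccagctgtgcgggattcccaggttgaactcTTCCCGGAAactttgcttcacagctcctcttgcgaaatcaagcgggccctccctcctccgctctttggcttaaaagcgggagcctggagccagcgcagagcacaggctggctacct
Fga: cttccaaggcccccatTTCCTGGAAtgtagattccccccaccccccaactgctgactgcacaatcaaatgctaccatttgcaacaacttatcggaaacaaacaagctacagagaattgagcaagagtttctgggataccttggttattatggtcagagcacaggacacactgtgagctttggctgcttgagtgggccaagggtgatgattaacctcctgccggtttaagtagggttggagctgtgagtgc
Fgb: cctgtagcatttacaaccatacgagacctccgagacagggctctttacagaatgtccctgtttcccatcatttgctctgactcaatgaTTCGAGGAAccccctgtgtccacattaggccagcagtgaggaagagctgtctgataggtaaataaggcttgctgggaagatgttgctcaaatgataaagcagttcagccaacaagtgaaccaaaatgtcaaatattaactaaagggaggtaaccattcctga
The Socs3 stretch is chr11:117969367-117969616 on the minus strand, upstream of the start, and its motif begins at position -154. In the Cish stretch, chr9:107296539-107296678 on the plus strand, 2 motifs lie at positions 1 and 12, just past the start. The Steap4 stretch is chr5:7960222-7960471 on the plus strand, with the motif at -116. The fibrinogen genes lie close together on chromosome 3, Fga at chr3:83025903-83026152 on the plus strand (motif at -234) and Fgb at chr3:83049864-83050113 on the minus strand (motif at -162).

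The arrays had medians of 5.47 to 5.57, and each array correlated with the others at a mean of 0.981 to 0.994 across genes. Hepatocyte genes were abundant: Alb, albumin, stood between 14.84 and 14.87 on the 4 IL-6 arrays, against 14.86 and 14.87 in the controls at 0 and 4 h. Markers of other cells were present. The 25 Kupffer cell and macrophage markers averaged 6.65 to 6.74 on the IL-6 arrays, below 7.13 and 7.00 in the controls at 0 and 4 h. In the other controls they averaged 6.62 at -5 h, 6.93 at 8 h, 6.97 at 12 h and 6.68 at 24 h. The 17 liver endothelial markers averaged 7.13 and 7.23 at 1 and 2 h and 6.89 at both 3 and 4 h, against 7.28 and 6.92 in the controls. The nuclear long RNAs differed between the 2 controls used: Malat1 was 11.52 in the control at 0 h, 9.62 at 4 h, 9.35 to 9.81 in the controls from 8 to 24 h and 11.24 to 11.65 with IL-6, and Neat1 was 11.14 at 0 h, 8.12 at 4 h and 10.18 to 10.52 with IL-6. Every comparison with control below uses the controls at 0 and 4 h, and the part of these differences in its results was not tested.

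Between 1-2 h and 3-4 h of IL-6 no gene passed the test. limma called 0 of 18193 genes (0%) at an adjusted p (Benjamini-Hochberg) under 0.05, with 390 genes higher (2.14%) and 430 lower (2.36%) at an unadjusted p under 0.05, 820 in all where 910 would be 5% of the tests. The smallest adjusted p was 0.76. The slope over hours 1 to 4 likewise called 0 genes (0%), with 340 positive (1.87%) and 397 negative (2.18%) under an unadjusted 0.05, 737 in all, and a smallest adjusted p of 0.0993, for Bmper. The IL-6 slope minus the control slope called 0 genes (0%), with 286 positive (1.57%) and 310 negative (1.7%) under an unadjusted 0.05, 596 in all. Over all genes the median standard error of the difference was 0.13, and the 95% interval reached a median of 0.27 to either side. Without any test, both later arrays lay above both earlier ones for 3208 genes (17.6%) and below them for 3621 (19.9%), while 911 genes (5.01%) were higher at each hour than at the one before and 944 (5.19%) lower.

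**Figure D1:**
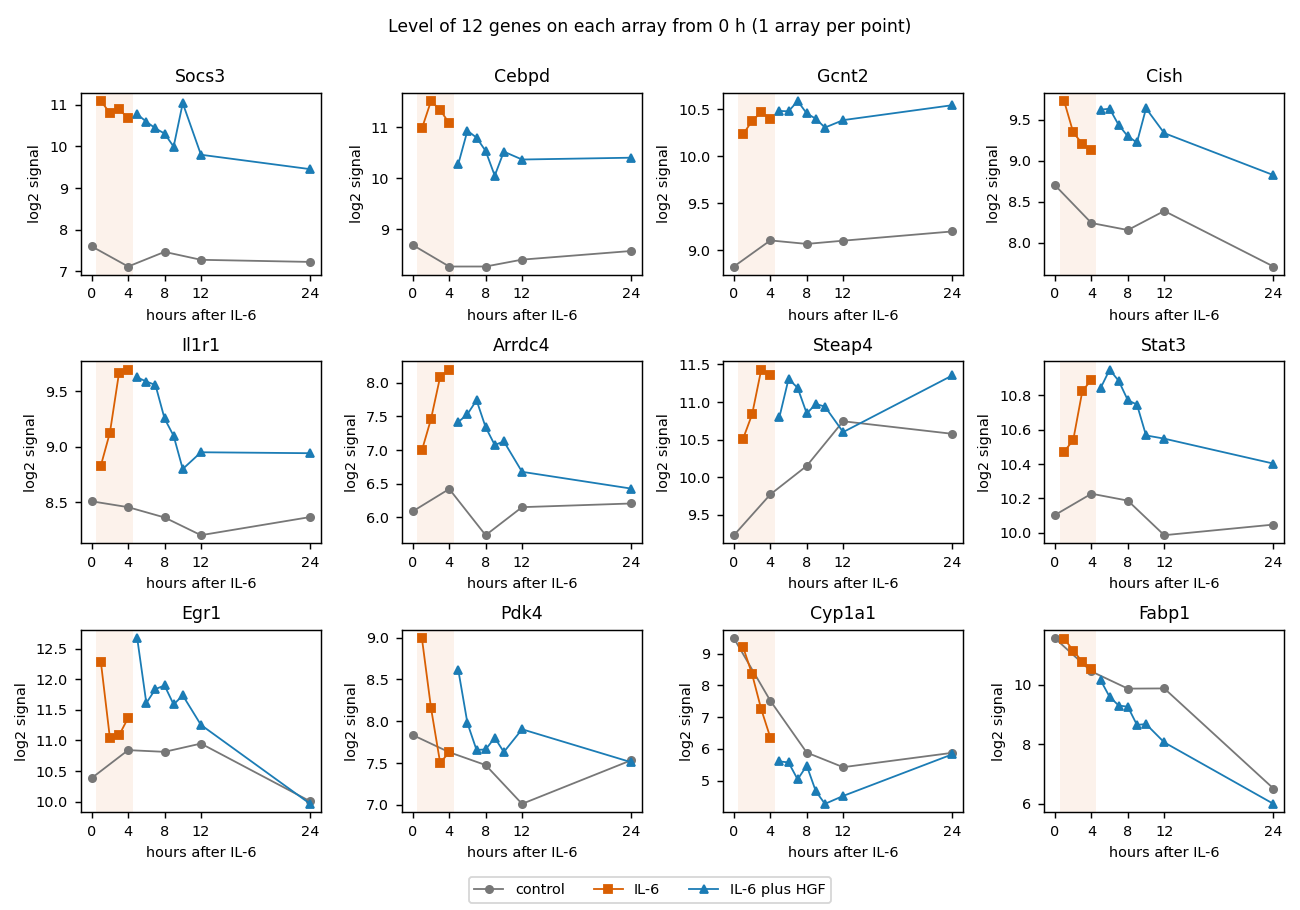
Log2 signal (vertical axis, a separate scale for each gene) against hours after IL-6 addition for 12 genes in controls (grey), IL-6 alone (orange) and IL-6 plus HGF (blue), with 1 array per point and no error bars, and hours 1 to 4 shaded. Socs3, Cebpd and Gcnt2 were high from 1 h on, Il1r1, Arrdc4, Steap4 and Stat3 were higher at 3 and 4 h than at 1 and 2 h, Egr1 and Pdk4 were highest at 1 h, and Cyp1a1 and Fabp1 were lower at each hour with IL-6 and also lower in the control at 4 h than at 0 h.

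The 3 genes called at 1-2 h were also called at 3-4 h. Against the controls at 0 and 4 h, limma called 3 genes higher (0.0165% of those tested) and 0 lower (0%) at 1-2 h, with 335 higher (1.84%) and 454 lower (2.5%) under an unadjusted p of 0.05. All 3 belong to a list of IL-6 and STAT3 genes that was written with earlier results of these data known. Socs3 was 11.09, 10.80, 10.89 and 10.69 at 1, 2, 3 and 4 h, against 7.60 and 7.12 in the controls. It was 12.0-fold above control at 1-2 h (log2 3.59 ± 0.29 SE, adjusted p = 4.45e-05) and 10.8-fold above it at 3-4 h (3.43 ± 0.29, adjusted p = 6.98e-05), 2 values that share their controls. All 4 IL-6 arrays thus lay far above both controls, and the step from 1-2 h to 3-4 h was -0.16, with a 95% interval from -0.79 to 0.47.

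Cebpd, which encodes the transcription factor C/EBP-delta, was 10.98, 11.52, 11.34 and 11.08, against 8.69 and 8.26 in the controls. It was highest at 2 h, and its step of -0.04 ± 0.23 turned to 0.23 without the 2 h array and to 0.09 without the 4 h array. Gcnt2, a glycosyltransferase that branches sugar chains, was 10.23, 10.38, 10.47 and 10.40, against 8.83 and 9.10. Its IL-6 values ranged over 0.24. Its effects against control were 1.34 ± 0.10 at 1-2 h (adjusted p = 4.45e-05) and 1.47 ± 0.10 at 3-4 h (adjusted p = 1.4e-05). These standard errors come from the spread within all 9 groups of arrays. The step was 0.13, with a 95% interval from -0.09 to 0.35.

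Other feedback and early genes were above both controls from 1 h without passing the test. Cish, a SOCS-family inhibitor best known from growth hormone and STAT5 signalling, was 9.73, 9.35, 9.21 and 9.13, against 8.70 and 8.24 in the controls. It was lower at each hour than at the one before and yet above both controls throughout; its effect at 1-2 h was 1.07 ± 0.17 (adjusted p = 0.0668), its effect at 3-4 h 0.70 ± 0.17 (adjusted p = 0.232), and its step -0.37 ± 0.17 (adjusted p = 0.999). Under an intensity trend with robust variance, Cish and Efna1 were called at 1-2 h (adjusted p = 0.0434 for each). Junb, an AP-1 subunit, was 9.98, 9.69, 9.63 and 9.65, against 9.15 and 8.41. Pim3, a survival kinase, was 10.69, 10.62, 10.69 and 10.35, against 10.03 and 9.74. For both genes every IL-6 array lay above both controls.

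Of the receptor chains, the IL-6 receptor pair had small steps. Il6ra, the IL-6 receptor, had a step of 0.17 ± 0.12 and Il6st, which encodes gp130, a step of 0.06 ± 0.10. Lifr, the leukaemia inhibitory factor receptor, had a step of -0.29, but its value averaged over all its probe sets was 0.0002. Osmr, the oncostatin M receptor, was 8.96, 9.17, 9.42 and 9.56, against 8.46 and 8.79 in the controls, higher at each hour than at the one before (step 0.42 ± 0.17, adjusted p = 0.999). Of 33 genes measured from the pathway list, 18 steps were positive and 15 negative, with a median of 0.02 beside -0.0001 over all genes. Median effects against control were 0.27 at 1-2 h and 0.25 at 3-4 h, where 3 and 6 members were called, beside 3 and 22 of all 18193 genes. The list was written with earlier results of these data known, so these counts are a description.

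At 3-4 h the number of genes called against the same controls was 22: 18 higher (0.0989%) and 4 lower (0.022%), with 496 higher (2.73%) and 633 lower (3.48%) under an unadjusted p of 0.05. Both windows use the same 2 control arrays, so their counts are not independent, and whether the responses differ between windows is the step test above, which called none. The 18 higher genes were Arrdc4, Bcl3, Ccdc71l, Cebpd, Efna1, Fga, Fgb, Frat2, Gcnt2, Glul, Ibtk, Il1r1, Rdh10, Socs3, Stat3, Steap4, Stom and Tifa, and 16 of them had a higher mean at 3-4 h than at 1-2 h, the exceptions being Socs3 and Cebpd. That direction is favoured by the choice of genes at 3-4 h and is given as a description. Left-out arrays moved the count from 6 (without IL-6 at 4 h) to 35 (without the control at 4 h, 16 higher and 19 lower), with 7 without IL-6 at 3 h and 7 without the control at 0 h. Arrdc4, Cebpd, Gcnt2, Socs3 and Steap4 were called in all 10 alternatives, Il1r1 in 9, and each of the rest in 3 to 6. The lower genes were Lce1d, Pde4d, Prkdc and Vsig4. Prkdc, the catalytic subunit of the DNA-dependent protein kinase, was 5.80, 5.71, 5.46 and 5.55, against 6.13 in both controls. Lce1d, a cornified envelope gene, was 5.37, 5.41, 5.39 and 5.21, against 6.18 and 5.95. Both genes were thus below the controls at 0 and 4 h from the first hour. In the other controls, however, Lce1d was 5.18 at -5 h and 5.24, 5.16 and 4.67 at 8, 12 and 24 h, near or below the IL-6 arrays.

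**Figure D2:**
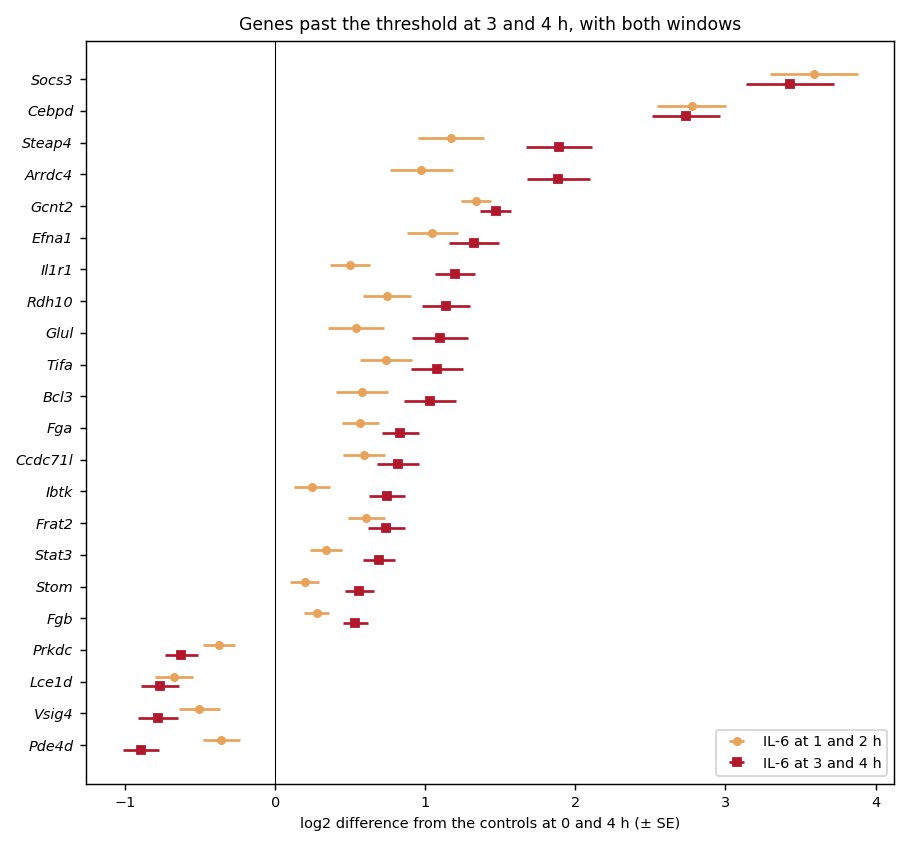
Log2 difference from the controls at 0 and 4 h (horizontal axis) for the 22 genes called at 3-4 h, with 1-2 h as orange circles, 3-4 h as red squares and bars of ± 1 SE from the fit (2 arrays against 2). Socs3 (3.59 and 3.43) and Cebpd (2.77 and 2.74) have nearly equal values in both windows, and Il1r1 (0.50 and 1.20), Arrdc4 (0.97 and 1.89) and Stom (0.20 and 0.56) have their larger value at 3-4 h.

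The gene with the smallest p for a higher level at 3-4 h was Il1r1, the receptor for interleukin-1, a cytokine that acts with IL-6 in the acute-phase response. It was 8.83, 9.13, 9.67 and 9.70 at 1 to 4 h, against 8.51 and 8.46 in the controls. All 4 IL-6 arrays lay above both controls and the later 2 above the earlier 2, with a step of 0.70 ± 0.13 (1.63-fold, unadjusted p = 0.000117, adjusted p = 0.76) and an effect at 3-4 h of 1.20 ± 0.13 (adjusted p = 0.00117). A second, dimmer Il1r1 probe set gave a step of 0.18 and an effect at 3-4 h of -0.06, and averaging both ended the call at 3-4 h (adjusted p = 0.053).

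Arrdc4, an alpha-arrestin, was 7.00, 7.46, 8.09 and 8.19, against 6.09 and 6.42. Each hour was higher than the last, with a step of 0.91 ± 0.21 (adjusted p = 0.76) and an effect at 3-4 h of 1.89 ± 0.21 (3.70-fold, adjusted p = 0.00117). Steap4, a metalloreductase of iron and copper handling, was 10.51, 10.84, 11.43 and 11.36, against 9.23 and 9.77, with a step of 0.72 ± 0.22 and an effect at 3-4 h of 1.89 ± 0.22 (adjusted p = 0.00156). Its control level was itself 0.54 higher at 4 h than at 0 h, and the IL-6 slope minus the control slope was 0.18 ± 0.12 per hour. For Arrdc4 that difference of slopes was 0.34 ± 0.11 and for Il1r1 0.33 ± 0.08 per hour (adjusted p = 1 for both).

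Stat3, the pathway's own transcription factor, was 10.47, 10.54, 10.82 and 10.89, against 10.10 and 10.23 in the controls. It was higher at each hour than at the one before, with a step of 0.35 ± 0.10 (adjusted p = 0.898) and an effect at 3-4 h of 0.69 ± 0.10 (1.61-fold, adjusted p = 0.0189). Bcl3, an atypical inhibitor of NF-kB proteins, was 10.05, 10.45, 10.70 and 10.71, against 9.80 and 9.55, with a step of 0.45 ± 0.17 and an effect of 1.03 ± 0.17 (adjusted p = 0.0373). Both genes thus followed the same order of hours as Il1r1. Rdh10, a retinol dehydrogenase, was 9.89, 10.15, 10.29 and 10.53, against 9.32 and 9.22, and reached an effect of 1.14 ± 0.16 at 3-4 h (adjusted p = 0.00994). Efna1, the ligand ephrin-A1, was 9.19, 9.22, 9.49 and 9.48, against 8.19 and 8.13: most of its difference from control (1.05 ± 0.17) was present at 1-2 h, and 1.33 ± 0.17 at 3-4 h (adjusted p = 0.00409).

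Other called genes had steps from 0.13 (Frat2) to 0.56 (Glul). Glul, glutamine synthetase, was 9.64, 9.80, 10.24 and 10.32, against 8.90 and 9.46, so that the control too was higher at 4 h. Ibtk, an inhibitor of Bruton's tyrosine kinase, was 9.57, 9.49, 9.96 and 10.10, against 9.16 and 9.41, and Stom, the membrane protein stomatin, 10.35, 10.45, 10.68 and 10.85, against 10.23 and 10.18. Both had their largest values at 4 h; averaged over all probe sets neither was called, nor was Stat3. Tifa, an adaptor of TRAF signalling, peaked at 3 h with 8.17 and stood at 7.76 at 4 h, and Frat2, a GSK3-binding protein, lay between 6.72 and 6.94 at all 4 hours, against 6.09 and 6.17 in the controls. Of the 22 called genes, 18 higher and 4 lower, 12 had their highest IL-6 value at 4 h. The choice of the higher genes at 3-4 h favours this, and the share over all genes was not counted.

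Among the 36 measured positive acute-phase proteins, Steap4 had the largest step (0.72), the fibrinogen chains had steps of 0.26 to 0.39, and Saa1 and Saa2 had steps near 0. Steap4, Fga and Fgb were called at 3-4 h and 0 members at 1-2 h, beside 22 and 3 of all 18193 genes. Of the steps, 24 were positive and 12 negative (median 0.03). Both later arrays lay above both earlier ones in 15 members, 41.7% of the list beside 17.6% of all genes, while 9 (25%) had both below, beside 19.9%. Fga was 13.58, 13.79, 13.93 and 13.97, against 13.15 and 13.08, with an effect of 0.57 ± 0.12 at 1-2 h and 0.83 ± 0.12 at 3-4 h (1.78-fold, adjusted p = 0.014). Fgb was 14.07, 14.20, 14.36 and 14.43, against 13.82 and 13.89, with an effect at 3-4 h of 0.54 ± 0.09 (adjusted p = 0.0288). Fgg, the gamma chain, was 13.49, 13.58, 13.91 and 13.94, against 13.19 and 13.06, and its effect of 0.80 ± 0.17 did not pass (adjusted p = 0.134). All 3 chains were higher at each hour than at the one before, and the 1 h value was already above both controls in each. All 3 lie at or above the 99.5th percentile of mean signal.

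Fgl1, fibrinogen-like 1, was 12.46 and 12.54 at 1 and 2 h and 12.77 and 12.80 at 3 and 4 h, against 12.47 and 12.64 in the controls, so only the later hours lay above both. Hamp, which encodes the iron hormone hepcidin, was 7.57, 8.01, 7.75 and 8.00, against 7.21 and 6.07, above both controls at every hour with no order among the hours. In contrast, Saa1 had a step of -0.02 ± 0.11 and Saa2 of 0.02 ± 0.17, with effects at 3-4 h of -0.07 and -0.06. Hp, haptoglobin, stood at 14.38, 14.35, 14.47 and 14.46, against 14.33 and 14.39. Crp had the lowest step of the list, -0.53, and Vnn1 the second highest, 0.42. The 14 negative acute-phase proteins had 11 negative steps and a median of -0.06, and 0 of them was called in any comparison.

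The 10 genes with the smallest p for a higher level at 3-4 h were Il1r1, Arrdc4, Bmper, Aoc1, Clps, Cacna1d, Scrg1, Ibtk, Btk and Fgf20, and 6 of the 10 lay under the 40th percentile of mean signal. The 10 leading upward slopes shared 5 of these genes and added Pros1, Stom, Rlbp1, Il33 and Ankrd66. Bmper, a secreted binder of bone morphogenetic proteins, was 5.62, 6.23, 6.75 and 7.00, against 5.88 and 6.01 in the controls. It began at or below control and was higher at each hour, at 0.47 ± 0.07 per hour (adjusted p = 0.0993), or 0.43 ± 0.09 per hour beyond the control slope (adjusted p = 1). Pros1, the anticoagulant protein S, was 8.49, 8.68, 8.90 and 9.13, against 8.42 and 8.56, with a slope of 0.21 ± 0.04 per hour. Clps, Cacna1d and Btk were below both controls at 1 and 2 h and at or near the control level at 3 and 4 h: for Cacna1d, a calcium channel subunit, the values were 5.33, 5.26, 5.70 and 5.80, against 5.64 and 5.79.

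On the falling side the 10 smallest p values belonged to Rgs2, Pde4b, Clec1b, Ctla2b, Rgs20, Elovl3, Pde4d, Nlrp12, Slc25a40 and Tmcc3, 4 of them under the 40th percentile. The 10 leading downward slopes shared 4 of these and added Myh8, Myzap, Axl, Cyp1a1, Gcc1 and Wee1. The list holds 2 pairs of like function: Pde4b and Pde4d degrade cyclic AMP, and Rgs2 and Rgs20 switch off G proteins. Rgs2 was 6.08, 6.03, 5.22 and 5.19, against 5.61 and 5.89, above both controls in the first 2 hours and below both in the next 2 (step -0.85 ± 0.15, unadjusted p = 4.85e-05, adjusted p = 0.76). Pde4b did the same with 7.45, 7.30, 6.82 and 6.74, against 7.02 and 6.96 (step -0.60 ± 0.12). Pde4d was 5.55, 5.41, 5.10 and 4.79, against 5.88 and 5.80, below both controls at every hour and lower each time, and it was called lower at 3-4 h (-0.89 ± 0.12, adjusted p = 0.00756). Its second probe set gave a step of 0.09 and an effect of -0.01, and those of Rgs2 gave steps of -0.68, -0.04 and -0.27. The other probe sets of Rgs20 gave steps of 0.09 and 0.18, where its brightest one gave -0.72, and those of Pde4b gave -0.61 to 0.15.

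Large excursions within the 4 hours were mostly early. In 38 genes (0.209%) the highest and lowest IL-6 arrays differed by at least 1, and 22 of them were highest at 1 h, 10 at 2 h, 2 at 3 h and 4 at 4 h. These genes were picked by their values, and those named here were chosen after the values were seen. Of the 22 highest at 1 h, 14 lay above both controls there. Atf3, a stress-induced transcription factor, was 10.58, 9.42, 8.91 and 9.37, against 8.62 and 8.79, and Egr1, a growth-factor-induced immediate early factor, 12.29, 11.04, 11.08 and 11.37, against 10.39 and 10.84. Both were highest at 1 h and still above both controls at 4 h. The Egr1 step of -0.44 ± 0.36 was 0.19 without the 1 h array, so its sign rests on that array.

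Several regulators of ERK and growth signalling were also highest at 1 h. At 4 h they lay above the control of the same hour and below the control at 0 h. Dusp5, a phosphatase of ERK, was 9.78, 9.23, 8.62 and 8.80, against 9.06 and 8.20, and Hbegf, an EGF receptor ligand, 9.05, 8.43, 7.74 and 8.11, against 8.60 and 7.83. Klf10 was 8.58, 7.86, 7.60 and 7.50, against 8.02 and 7.30. In these 3 genes the control was also lower at 4 h than at 0 h, by 0.86, 0.77 and 0.72. Pdk4, the kinase that shuts off pyruvate dehydrogenase, differed in that respect: it was 8.99, 8.16, 7.51 and 7.63, against 7.84 and 7.63, with a step of -1.01 ± 0.28 (adjusted p = 0.839) where the control moved by -0.20. Across the 30 immediate early genes 20 steps were negative (median -0.11) and 0 were called in any comparison; across the 20 ERK feedback genes 13 were negative (median -0.03). Their median control changes from 0 to 4 h were -0.14 and -0.09.

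**Figure D3:**
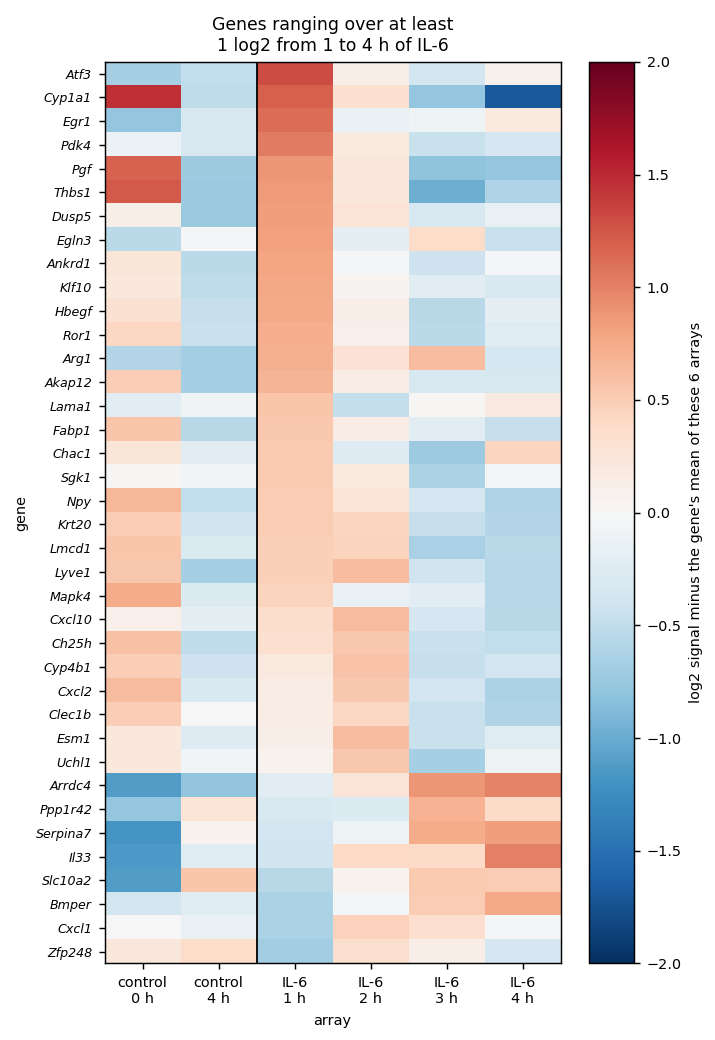
Each row is 1 of the 38 genes whose IL-6 arrays differ by at least 1 (log2) and each column 1 array; colour gives the log2 signal minus the gene's mean over these 6 arrays. Most genes are highest at 1 or 2 h, and the pale or blue cells of the control at 4 h beside warmer cells at 0 h show that many of them were also lower in the unstimulated cells at 4 h.

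The largest shifts between the windows went the way the unstimulated cells went. At least 0.5 below their 1-2 h mean at 3-4 h were 111 genes (0.61%), and 106 of them were also lower in the control at 4 h than at 0 h; at least 0.5 above were 36 genes (0.198%), and 31 of them were also higher in the control. Over all genes 8996 of 18193 were lower in the control at 4 h. The 2 sides of this count use different arrays. Cyp1a1, the aryl hydrocarbon receptor's target enzyme, was 9.22, 8.35, 7.25 and 6.36, against 9.49 and 7.52 in the controls, the largest step of all genes at -1.98 ± 0.53 (adjusted p = 0.821). With only the 4 IL-6 arrays in the fit its slope of -0.97 per hour was the single call (adjusted p = 0.00574), while its slope minus the control slope was -0.48 ± 0.17 per hour (adjusted p = 1).

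Fabp1, the liver fatty acid binding protein, was 11.54, 11.14, 10.76 and 10.54 with IL-6 and went from 11.55 to 10.44 in the controls. Pgf, placental growth factor, was 9.62, 8.96, 7.93 and 7.97, against 9.92 and 8.02, and Npy, neuropeptide Y, 10.17, 9.94, 9.32 and 9.05, against 10.32 and 9.17. In each, the IL-6 array and the control at 4 h were nearly level. Serpina7, thyroxine-binding globulin, moved upward in both: 8.83, 9.11, 9.95 and 10.04 with IL-6 and 8.03 to 9.27 in the controls, so that its step of 1.03 ± 0.38, the largest positive one, stood beside a control change of 1.24. The same holds for Iigp1, an interferon-inducible GTPase, at 10.96, 11.07, 11.76 and 11.70 against 9.88 and 10.66.

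**Figure D4:**
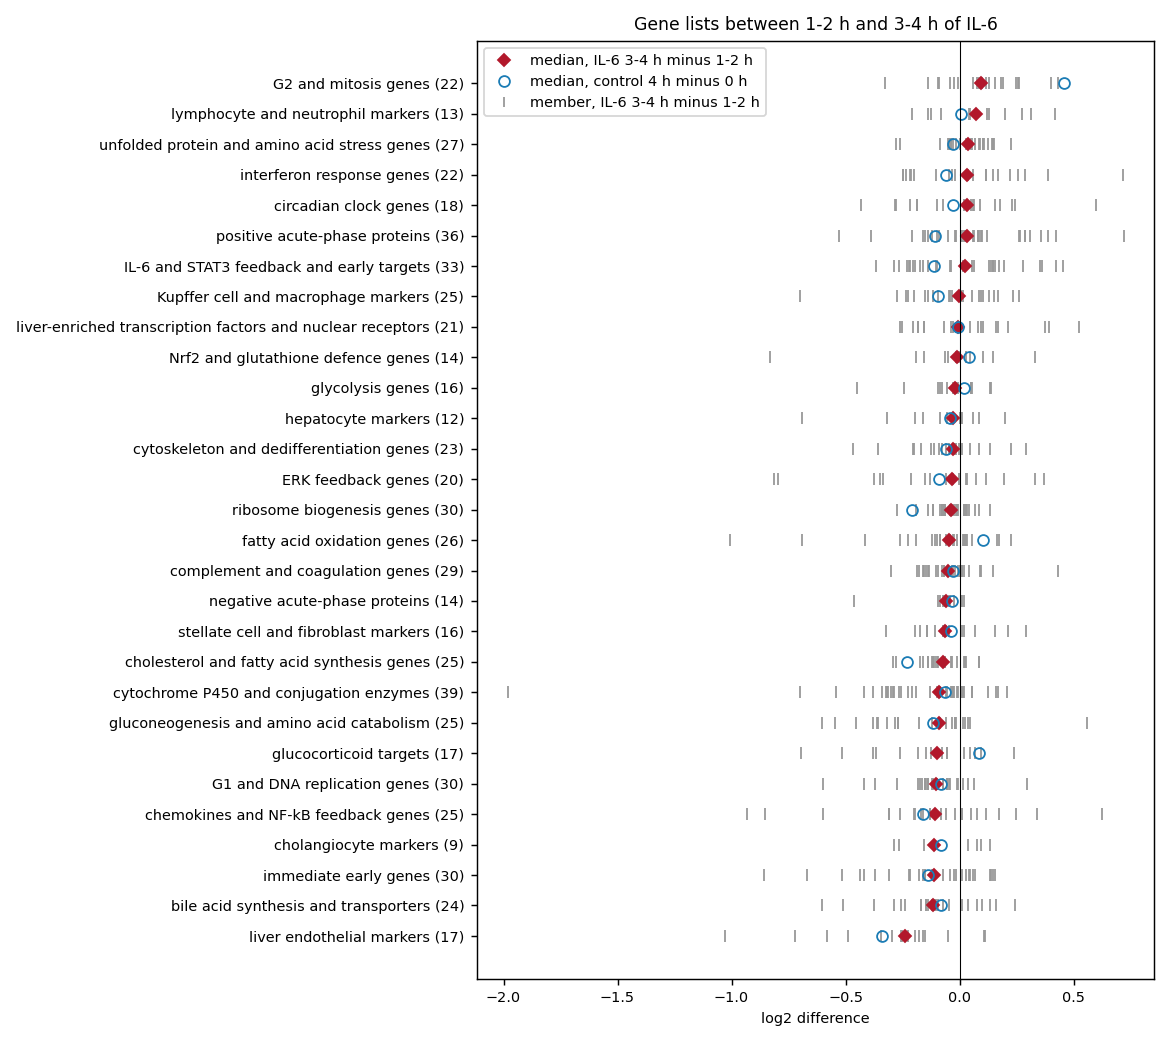
For each gene list (measured members in brackets, lists of 5 or more), grey ticks are the members' log2 differences between 3-4 h and 1-2 h of IL-6, red diamonds their median, and open blue circles the median difference between the controls at 4 and 0 h. List medians for IL-6 lie between -0.24 (liver endothelial markers) and 0.095 (G2 and mitosis genes), and 0 members of any list were called for this difference.

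Most metabolic genes of the hepatocyte had negative steps, though none passed the test. Of 39 cytochrome P450 and conjugation enzymes, 29 had a negative step (median -0.09), 22 (56.4%) had both later arrays below both earlier ones, and 17 (43.6%) were lower at each hour than at the one before, beside 19.9% and 5.19% of all genes. Against control, 30 of the 39 were above at 1-2 h (median 0.12) and 16 at 3-4 h (median -0.06), beside 8664 and 8546 of all 18193 genes. The IL-6 slope was below the control slope in 36 of 39. In the bile acid list it was below in 22 of 24, with step values of -0.61 for Slc10a1, the main bile acid importer, -0.51 for Nr1h4, the bile acid receptor FXR, and -0.38 for Abcb11, the bile salt export pump. Among fatty acid oxidation genes it was below in 23 of 26, and among gluconeogenesis and amino acid genes in 18 of 25; over all genes it was below in 9467 of 18193. Median effects against control at 1-2 h and 3-4 h were 0.07 and -0.04 for the bile acid list. They were 0.12 and -0.03 for gluconeogenesis and amino acid genes, and -0.05 and -0.09 for fatty acid oxidation genes. No member of these lists was called for the step, the slope or the difference of slopes, and members of a list share arrays and are not replicates. In cholesterol and fatty acid synthesis the reverse held: 19 of 25 steps were negative, while the IL-6 slope was below the control slope in 5.

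In the glucocorticoid target list 12 of 17 steps were negative (median -0.10). Its median control change from 0 to 4 h was 0.09, with 6 of 17 lower at 4 h, beside 8996 of all 18193 genes. The IL-6 slope was below the control slope in 13 of the 17, beside 9467 of all 18193. Sgk1, a glucocorticoid- and serum-induced kinase, was 11.43, 11.11, 10.28 and 10.87, against 10.94 and 10.86, and Tat, tyrosine aminotransferase, 8.97, 8.80, 8.46 and 8.29, against 9.19 and 8.25. Of these, Sgk1 was lowest at 3 h. Tat was lower each hour with IL-6, and its control was lower at 4 h than at 0 h. G1 and DNA replication genes had 26 of 30 negative steps (median -0.10), and G2 and mitosis genes 15 of 22 positive (median 0.095) beside a control change of 0.46. Chemokine and NF-kB feedback genes had 16 of 25 negative steps (median -0.11), with Cxcl10 at 8.64, 8.92, 7.96 and 7.74, against 8.39 and 8.09. For liver-enriched transcription factors the median of -0.0056 turned positive under quantile normalization and median centring, and the medians of glycolysis genes (-0.02, quantile) and Kupffer cell markers (-0.0043, centring) turned too.

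Endothelial markers were mostly lower at 3-4 h than at 1-2 h, with 0 called. Of 17 endothelial markers 15 had a negative step (median -0.24). In 12 of them (70.6%, beside 19.9% of all genes) both later arrays lay below both earlier ones. In the controls, 15 of the 17 were also lower at 4 h than at 0 h (median -0.34), beside 8996 of all 18193 genes. Lyve1, a hyaluronan receptor of sinusoidal endothelium, was 9.18, 9.32, 8.31 and 8.13, against 9.24 and 8.04. Clec1b, a C-type lectin receptor among the 10 leading falls, was 6.85, 7.12, 6.27 and 6.10, against 7.20 and 6.72. In bulk RNA fewer cells of a type and less RNA per cell cannot be told apart. The Kupffer cell markers had a median step of -0.0043, with 12 of 25 positive, and medians of -0.34 and -0.36 against control at 1-2 h and 3-4 h, where 0 and 3 of 25 were above control. Vsig4, a macrophage receptor and one of the 4 genes called lower at 3-4 h (-0.78 ± 0.14, adjusted p = 0.0387), is a member of that list and was 7.55, 7.56, 7.32 and 7.24, against 8.19 and 7.94. The mean of the Kupffer list in the unstimulated controls at -5 and 24 h (6.62 and 6.68) was near that of the IL-6 arrays. The part of Kupffer and endothelial RNA in these values was not tested.

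After 4 h HGF was added, and there was no array of IL-6 alone beyond that hour, so HGF and longer IL-6 cannot be told apart. At 5, 6 and 7 h, Il1r1 was 9.63, 9.59 and 9.56, close to its level at 4 h, and 8.94 at 24 h. Socs3 was 10.77, 10.59 and 10.43, then 9.45 at 24 h, still above its controls of 7.12 to 7.60. Arrdc4 was 7.42, 7.53 and 7.74, below its 4 h value of 8.19. Of the genes highest at 1 h of IL-6, Egr1 (12.67), Dusp5 (10.39), Hbegf (9.88) and Klf10 (8.77) were higher still at 5 h, the first hour with HGF, while Atf3 (10.00) and Pdk4 (8.61) were below their 1 h values there.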

How the data were processed

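RNA of 18 samples was labelled and hybridised to 1-colour Affymetrix arrays, per the labels' protocols. The deposited values are on a log2 scale, as their range of 2.09 to 15.05 shows. No source used here gives their background correction, normalization or software, and precision is limited by how few arrays there are. Of 45101 probe sets, 34958 had 1 gene symbol in the platform annotation, 932 several, 9211 none, and 64 were array controls. Each of 18193 genes took its probe set of highest mean signal.

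Differences and slopes were fitted with limma 3.58.1 (R 4.3.3; lmFit, eBayes) over all 18 arrays as 9 groups of neighbouring hours, which share 1 estimate of the spread, and p-values were adjusted by Benjamini-Hochberg over all genes at a threshold of 0.05. The fits were tested on simulated data. Genes named are the 10 with the smallest p in each direction, called genes, fixed genes and up to 4 per list. Others, such as Malat1 and Cxcl10, were chosen after their values were seen, as were list members such as Fabp1, Iigp1, Lyve1 and Neat1. The arrays follow from the labels, but this comparison of them, the gene lists and the tests were chosen with earlier results of these data known. Alternatives were quantile normalization, median centring, averaged probe sets, an intensity trend with robust variance, a filter on the lowest 40 percent of signals, a minimum difference, fewer arrays in the fit, the control at 4 h alone, and leaving out each array in turn.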

Additional observations from a re-analysis of the deposited data

How the results depend on the processing

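The step from 1-2 h to 3-4 h and both slopes called 0 genes under the alternatives run, except that the slope fitted on the 4 IL-6 arrays alone called 1, Cyp1a1. Against control at 1-2 h the count of 3 was 5 with an intensity trend and robust variance, 8 with the mean of all probe sets, and 3 to 7 with 1 array left out, the 7 without the control at 0 h. At 3-4 h the count of 22 was 11 with a difference of at least 1, 7 with the control at 4 h alone, and 6 to 35 with 1 array left out. Of 1679 values of named genes under alternatives, 7 turned sign: the step with 1 array left out of Cebpd (-0.31 to 0.23, above 0 without 2 h or 4 h), Pim3 (-0.31 to 0.034, without 4 h), Egr1 (-1.06 to 0.19, without 1 h) and Saa2 (-0.0026 to 0.048, without 1 h), and the step of Lifr with the mean of all probe sets (0.0002) and Saa1 with quantile normalization (0.0094). The cause was not tested. The slope minus the control slope was not run without the control at 0 or 4 h. No paired analysis was possible because the labels carry no replicate numbers. A lone array left in a group is assumed to vary like the other groups. With 1 array per hour, a peak within a window, such as that of Egr1 at 1 h, adds to the gene's 1 estimate of the spread, which all groups share.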
